A study of Mus musculus with 2 samples.

Results

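Gata2 and 3 of its partner genes, Cbfa2t3, Lyl1 and Ldb1, were described in single blood progenitor cells of mouse fetal liver. The 4 genes were taken by symbol from the 32285 genes that both libraries list, and all 4 were measured in both. They were chosen from measured values, the difference in UMI counts between these libraries, so the knockout to control differences given here describe that choice and carry no test. The questions were which progenitor classes and which cells carry the higher Gata2 and Cbfa2t3 of the knockout library, and whether the same cells carry both.

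GATA2 is a zinc finger transcription factor of stem cells, early progenitors, megakaryocytes and mast cells, and erythroid cells replace it with GATA1 as they mature. On DNA it works with TAL1 or its close relative LYL1, with LMO2, and with LDB1, an adaptor that dimerises and brings distant sites together. Cbfa2t3 encodes ETO2, a corepressor that joins these complexes in immature cells and holds down erythroid genes until maturation. BRD9, the protein removed here, is a bromodomain reader within one form of the SWI/SNF remodeller.

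Both libraries held lineage-negative, c-Kit positive cells from C57BL/6 embryos at E14.5, and both carried floxed Brd9. The knockout library (CD45.2(+) Vav1-iCre Brd9fl/fl) also carried Vav1-iCre, a recombinase driven by a promoter active in blood cells, and the control library (CD45.2(+) Brd9fl/fl) did not. The recombinase was not present alone in any library, so its effects cannot be told apart from those of Brd9 loss. There was 1 library per genotype, so no p-value is given. Every interval is a 95% interval that covers counting error only, not the spread between embryos. Intervals of levels and of their ratios treat UMIs as independent, so they also leave out the spread between cells. Intervals are exact, except those of odds ratios and of differences in percentage points, which are normal approximations.

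The analysed cells numbered 6757 in the knockout and 6860 in the control library, at median depths of 36007 and 38485.5 unique molecular identifiers (UMIs), each of which counts 1 captured transcript. Levels are given as CPM, the UMIs of a gene per 1e6 UMIs of the same cells. Brd9, the targeted gene, was at 7.06 CPM in the knockout and 27.2 in the control, and in the 7 classes described below its log2 ratio lay between -2.23 and -1.14. Cells were clustered without the 4 genes and their pathway lists, and clusters were named by fixed markers, so a class name stands for cells like that type. Comparison was limited to the 7 classes that held 100 or more cells of both genotypes. They were haematopoietic stem cells and multipotent progenitors (HSC/MPP, 450 knockout and 481 control cells), megakaryocyte-erythroid progenitors (MEP, 737 and 477), mast cells and basophils (251 and 166), granulocyte-monocyte progenitors (GMP, 324 and 458), monocyte and dendritic progenitors (155 and 238), erythroid cells (3390 and 3899), and an unnamed class led by Kcng2 (1281 and 895). Summed hepatocyte markers were at 13.2 CPM in the knockout and 30.8 in the control, and their part in the results was not tested. The GMP cluster had 2 GMP and 2 eosinophil markers among its 10 leading genes, and the HSC/MPP cluster had 1 lymphoid marker there. Erythroid clusters were often mostly of 1 library: clusters 0 and 9 held 800 and 775 knockout but 23 and 57 control cells. Clusters 3, 7 and 6 instead held 878, 405 and 719 control but 98, 32 and 268 knockout cells. By Xist and Y-linked transcripts 58.95% of knockout and 22.96% of control cells were female. Cells with at most 1 Xist UMI were counted as male without a Y-linked transcript being required, so female cells whose Xist was missed may be among them. Female and male cells come from different embryos, so values within each sex are given beside the results they bear on.

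The promoters of Gata2 and Cbfa2t3 are shown because the transcripts of both genes were higher in the knockout library. They are 300 bases each, from 250 before to 50 after a RefSeq start on the GRCm38.p6 assembly (mm10), written 5′ to 3′ on the gene's strand. Capitals mark GATAA, the core of a GATA site, and CAGNTG, the E-box bound by TAL1, LYL1 and their E-protein partners, on either strand.
Gata2 promoter 1 at chr6:88193641-88193940, plus strand: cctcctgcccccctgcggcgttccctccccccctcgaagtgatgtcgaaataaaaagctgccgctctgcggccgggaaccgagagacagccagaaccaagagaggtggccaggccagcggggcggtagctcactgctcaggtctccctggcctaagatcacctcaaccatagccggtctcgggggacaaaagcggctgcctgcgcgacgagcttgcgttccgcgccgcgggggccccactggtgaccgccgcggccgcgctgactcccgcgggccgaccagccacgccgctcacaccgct
Gata2 promoter 2 at chr6:88198414-88198713, plus strand: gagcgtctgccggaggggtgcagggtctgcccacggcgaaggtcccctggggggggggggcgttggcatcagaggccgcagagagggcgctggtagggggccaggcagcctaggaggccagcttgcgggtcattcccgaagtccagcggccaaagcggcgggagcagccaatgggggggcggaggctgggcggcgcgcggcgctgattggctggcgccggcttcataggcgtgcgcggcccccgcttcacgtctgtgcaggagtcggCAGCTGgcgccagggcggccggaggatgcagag
Cbfa2t3 promoter 1 at chr8:122699060-122699359, minus strand: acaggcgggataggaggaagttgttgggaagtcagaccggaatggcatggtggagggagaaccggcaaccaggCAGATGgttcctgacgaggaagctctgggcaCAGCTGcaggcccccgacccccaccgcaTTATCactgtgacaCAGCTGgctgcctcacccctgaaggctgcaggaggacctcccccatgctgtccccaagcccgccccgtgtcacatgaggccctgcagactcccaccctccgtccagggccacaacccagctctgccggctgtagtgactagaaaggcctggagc
Cbfa2t3 promoter 2 at chr8:122678126-122678425, minus strand: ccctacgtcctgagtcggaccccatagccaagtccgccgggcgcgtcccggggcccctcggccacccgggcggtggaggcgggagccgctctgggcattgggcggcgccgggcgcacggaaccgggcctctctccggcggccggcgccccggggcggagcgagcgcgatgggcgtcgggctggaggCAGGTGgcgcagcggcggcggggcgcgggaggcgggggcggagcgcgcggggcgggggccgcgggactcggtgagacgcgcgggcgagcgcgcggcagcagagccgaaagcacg
The upstream Cbfa2t3 promoter held 1 GATAA and 3 CAGNTG matches, and its GATAA match is written TTATC, on the opposite strand. Gata2 promoter 2 and Cbfa2t3 promoter 2 each held 1 CAGNTG and 0 GATAA, and Gata2 promoter 1 held neither. Among 32851 promoters of the same length, 25.4% held GATAA and 51.4% held CAGNTG, so such matches are common. TGTGGT, the core bound by RUNX factors and found in 16.8% of promoters, was in none of the 4. The matches are letters in a window, not measured sites. The libraries count transcripts from their 3' ends, so they do not show which promoter a transcript came from. On mm10, Gata2 spans 88193891 to 88207032 of chromosome 6 (plus strand) and Cbfa2t3 spans 122625141 to 122699109 of chromosome 8 (minus strand). Lyl1 lies on chromosome 8 at 84701457 to 84704715 (plus strand) and Ldb1 on chromosome 19 at 46031570 to 46045214 (minus strand).

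Summed over all cells, Gata2 was at 25.9 CPM in the knockout and 16.1 in the control, on 6581 and 4432 UMIs, a log2 ratio of 0.68 (0.63 to 0.74). Cbfa2t3 was at 118 against 89.2, a log2 ratio of 0.40 (0.38 to 0.42). Lyl1 was at 60.3 against 53.6, a log2 ratio of 0.17 (0.14 to 0.20), and Ldb1 at 75.2 against 76.2, a ratio of -0.02 (-0.05 to 0.01). Of the 6226 genes that reached 20 CPM in one library or both, counted from the highest ratio, Gata2 had rank 13, Cbfa2t3 rank 47, Lyl1 rank 369 and Ldb1 rank 4595. A log2 ratio of at least 0.3 was reached by 2 of the 4 members and by 1.46% of these genes, and the members were chosen on this contrast.

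The Gata2 difference was present within each sex. In female cells Gata2 was at 24.1 CPM in the knockout and 14.2 in the control, and in male cells at 29.2 and 16.5. Both knockout values lay above both control values, as for 40.5% of all genes tested, and the log2 ratio was 0.76 in female and 0.83 in male cells. Female cells, more frequent in the knockout, carried less Gata2 than male cells in each library (female to male log2 ratio -0.28 in the knockout and -0.21 in the control), and the pooled ratio of 0.68 lay below both. For Cbfa2t3 the female and male ratios were 0.39 and 0.41.

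Mast cells and basophils carried the most Gata2 in both libraries, at 401.5 CPM in the knockout and 300.2 in the control. Megakaryocytes (93 and 64 cells, too few to be compared) followed at 108 and 99.3, then MEP at 83.0 and 79.3 and HSC/MPP at 50.8 and 34.7. GMP came next at 45.4 and 21.1, and erythroid cells were lowest, at 1.13 and 0.998, with an interval that in the knockout overlapped that of the monocyte class. In the knockout the intervals of HSC/MPP and GMP overlapped, while in the control they did not.

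**Figure D1:**
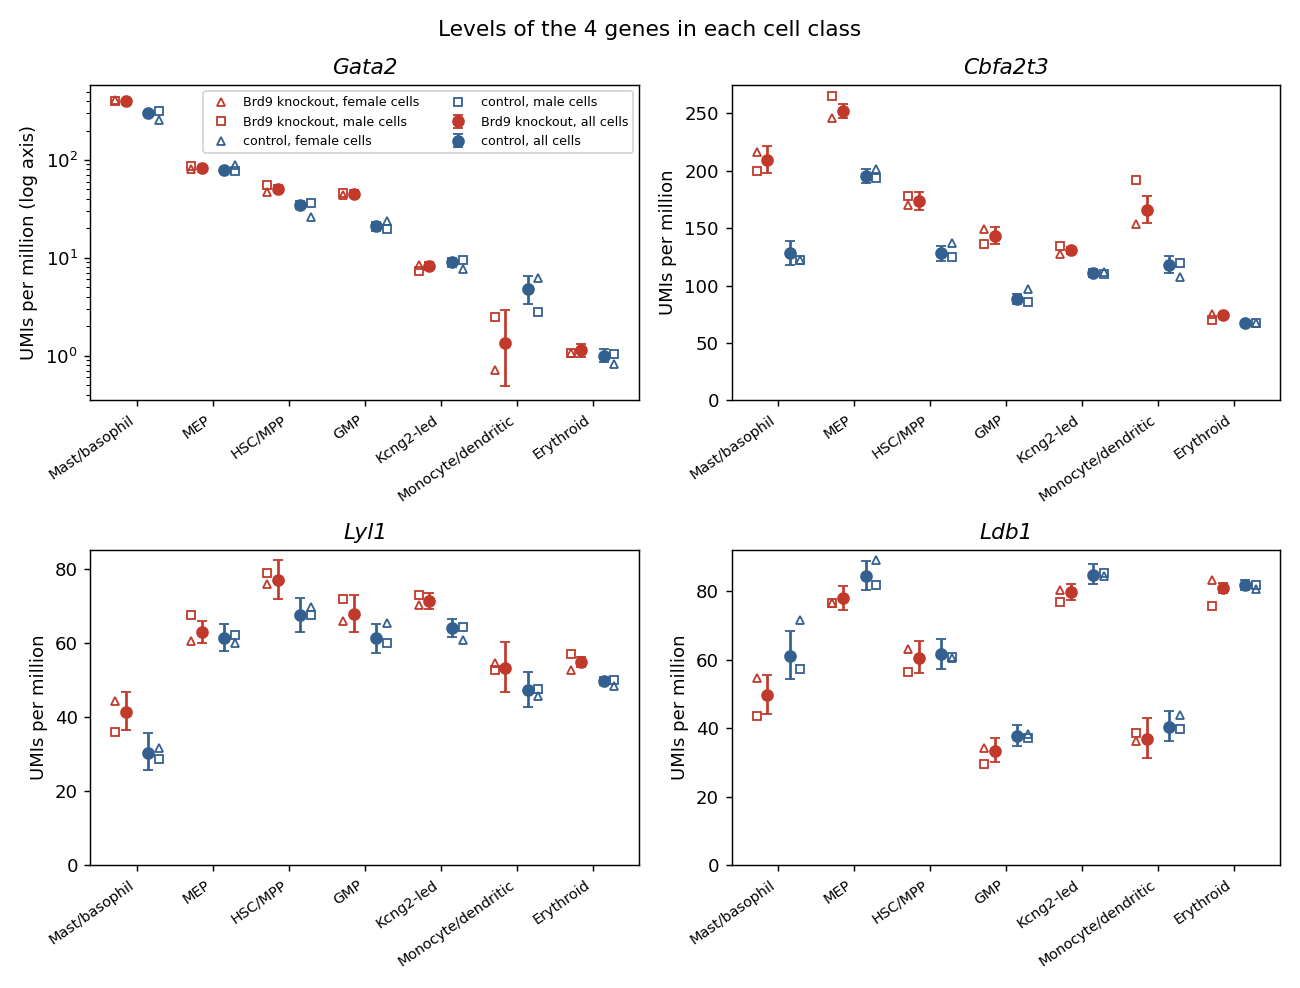
CPM of each gene in the 7 compared classes, on a log axis for Gata2 and from 0 for the others. Filled points are all cells of the Brd9 knockout (red) or control (blue) library with 95% exact Poisson intervals, and open triangles and squares are female and male cells. The Cbfa2t3 points of the knockout lie above those of the control in each class for both sexes, while the MEP points for Gata2 overlap.

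Gata2 was higher in the knockout, with the interval above 0, in 3 of the 7 classes: GMP, HSC/MPP, and mast cells and basophils. These 3 also passed a log2 ratio of 0.3, which 4.44%, 4.74% and 10.0% of genes passed in the same classes. How many of all genes had an interval above or below 0 was not counted, here or for the other members. The ratio was largest in GMP, at 1.105 (0.90 to 1.31) on 470 and 334 UMIs. Female GMP cells had 44.1 against 23.6 CPM and male GMP cells 45.9 against 19.8, so the knockout values did not overlap those of the control. In HSC/MPP the ratio was 0.55 (0.37 to 0.74), with 47.6 against 25.9 in female and 54.9 against 36.7 in male cells. In mast cells and basophils it was 0.42 (0.33 to 0.51), with 406 against 256 in female and 405 against 318 in male cells. By sex the knockout values also lay above those of the control in erythroid cells, by little (1.06 and 1.05 against 0.815 and 1.04). Such a separation by sex was found for 24.8% of genes in GMP, 27.0% in HSC/MPP, 29.5% in mast cells and basophils and 39.7% in erythroid cells.

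MEP, the compared class with the second highest Gata2, differed by a log2 ratio of 0.06 (-0.03 to 0.16). Under the other clusterings tried it lay between -0.01 (doublets kept) and 0.08 (cell-cycle genes kept). With knockout cells assigned to the nearest control cluster, where no HSC/MPP class was obtained, it was 0.34 (0.26 to 0.42). In male cells alone it was 0.15 (0.01 to 0.28). Female MEP had 80.7 CPM in the knockout against 89.6, male MEP 85.8 against 77.5, so the libraries overlapped. In the Kcng2-led class the Gata2 ratio was -0.12 (-0.33 to 0.08). In monocyte and dendritic progenitors it was lower, at 1.33 against 4.75, but on only 6 and 40 UMIs (ratio -1.835, -3.36 to -0.59). By sex both knockout values lay below both control values, as for 21.9% of genes in this class, and 4.96% of genes were lower past -0.3. Leaving out 5 control cells with transcripts of both sexes took the control count to 28 and the ratio to -1.375, a choice made after seeing the data. With doublets kept in clustering it was -0.05, at resolution 1.5 it was -0.13, and in male cells alone it was -0.18.

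**Figure D2:**
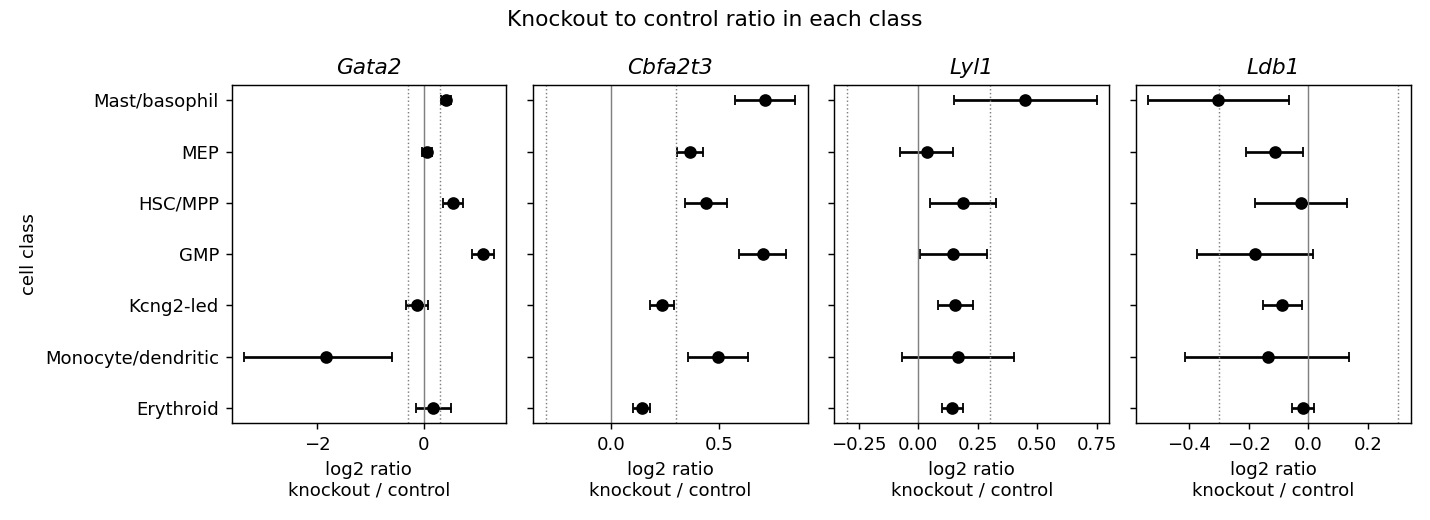
Log2 ratio of knockout over control for each gene (x axis, a different range in each panel) in the 7 classes, with 95% exact intervals for counting error. The solid line marks 0 and the dotted lines mark 0.3 and -0.3, and Cbfa2t3 lies above 0 in all 7 classes while Gata2 ranges from -1.835 to 1.105.

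More GMP cells carried Gata2 in the knockout. With every cell thinned to 18526 UMIs, 38.8% of 304 knockout GMP (33.3 to 44.5) and 24.6% of 443 control GMP (20.7 to 28.9) had a Gata2 UMI. Without thinning the shares were 51.5% and 38.4%, at median depths of 30022.5 and 33239 UMIs. Alb, a hepatocyte transcript that serves as background, was found in 0.658% and 0.677% of the same cells. The positive GMP cells also held more Gata2 each, 1.93 on average in the knockout against 1.45, and 7.89% against 2.48% held 3 or more.

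The GMP difference was found in cells with much and with little of the neutrophil granule genes that mark GMP. GMP cells were divided at the median share of Mpo and Prtn3, which encode myeloperoxidase and proteinase 3. Above it Gata2 was at 26.9 CPM in the knockout and 12.6 in the control, a log2 ratio of 1.10 (0.70 to 1.49), and at or below it at 58.5 and 30.5, a ratio of 0.94 (0.695 to 1.18). In GMP cells without a UMI of 9 mast cell and basophil markers (242 and 370 cells) the ratio was 1.16. These 9 leave out Cpa3 and Hdc, so such cells may still carry them. These divisions were chosen after seeing the data. Gata2-positive GMP cells held more of the 11 mast cell and basophil markers in both libraries, 479 against 244 summed CPM in the knockout and 479 against 242 in the control. They held less of the 6 GMP markers, 7461 against 9069.5 in the knockout and 8165 against 10912 in the control. Most of the mast cell and basophil sum came from Cpa3 and Hdc, both known to be bound or activated by GATA2. Over all GMP cells Cpa3 was at 205 CPM in the knockout and 137 in the control, and Hdc at 122 and 139.

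In HSC/MPP the thinned share with a Gata2 UMI was 40.4% in the knockout (35.1 to 45.9, 42.7% unthinned) and 35.6% in the control (30.6 to 40.9, 39.1% unthinned), so the intervals overlapped. The share with 3 or more UMIs was 12.8% against 6.84%, and the mean in positive cells 2.24 against 1.77 UMIs. Gata2-positive HSC/MPP cells were low in lymphoid markers, with 127 against 447 summed CPM in Gata2-negative cells of the knockout and 182 against 571 in the control. They were higher in mast cell and basophil markers (367 against 107, and 274 against 68.8), in MEP markers (854 against 376.5, and 1203 against 515) and in Gata1 (20.3 against 5.51, and 21.2 against 7.40). Most of the mast cell and basophil sum was Cpa3. Over all HSC/MPP cells Cpa3 was at 189.5 CPM in the knockout and 105 in the control. The cells above the median share of lymphoid markers numbered 203 of 450 in the knockout and 262 of 481 in the control. The ratio was smaller on each side of that median, 0.41 (0.20 to 0.62) at or below it and 0.33 (-0.08 to 0.73) above it, a division chosen after seeing the data. At a finer clustering, resolution 1.5, the HSC/MPP ratio was 0.18 (-0.20 to 0.55).

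Nearly all mast cells and basophils were Gata2-positive, 96.7% of knockout and 96.1% of control cells after thinning. Their difference lay in the amount, a mean of 7.33 against 5.66 UMIs in positive cells. MEP showed no such rise: 58.2% against 61.9% of cells had a Gata2 UMI, and 25.6% against 24.9% had 3 or more. Erythroid cells had Gata2 UMIs in 1.84% and 1.61% of cells, against 0.994% and 1.25% for Alb. The intervals of Gata2 and Alb overlapped in the control (1.24 to 2.06 and 0.921 to 1.65) and lay next to each other in the knockout (1.41 to 2.35 and 0.685 to 1.39).

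**Figure D3:**
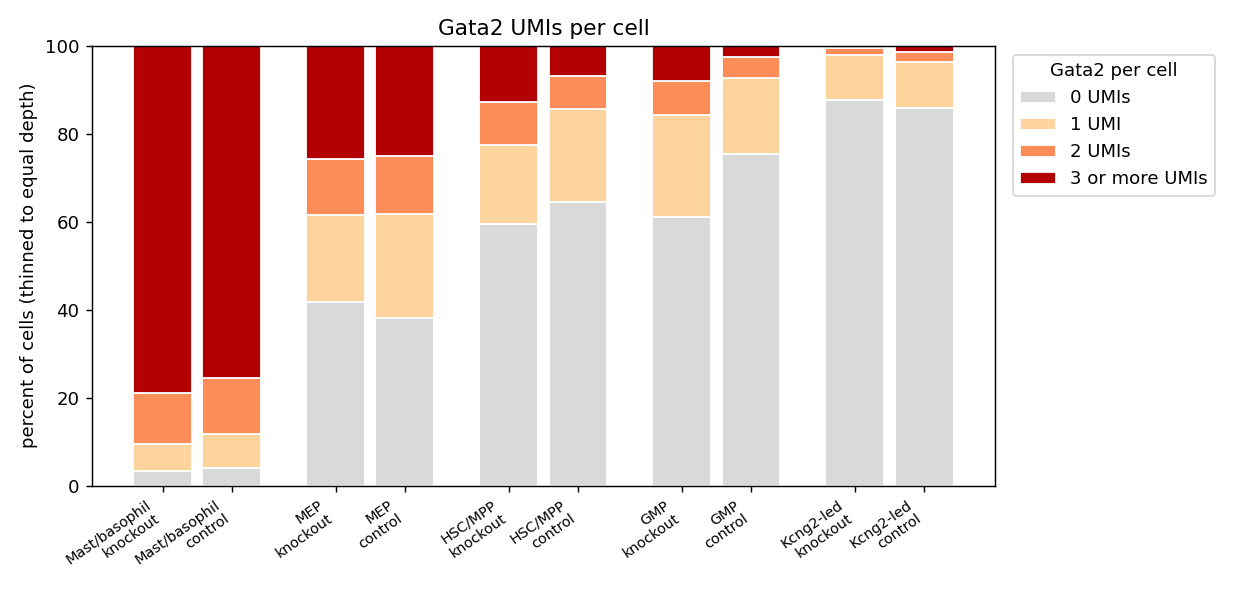
Percent of cells (y axis) with 0, 1, 2 or 3 or more Gata2 UMIs after thinning each cell to the same depth, in 5 classes of each library. The bars without Gata2 shrink from 75.4% of control GMP to 61.2% of knockout GMP, while the MEP bars stay close.

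Gata2 UMIs were gathered in few cells. The richest 10% of cells held 79.5% of the knockout and 84.1% of the control UMIs of Gata2, while the same share of cells held 32.5% and 33.5% of Cbfa2t3 UMIs. The single richest cell held 0.653% and 0.632% of Gata2 UMIs. Of the thinned cells with 3 or more Gata2 UMIs, 42.7% were MEP and 33.6% mast cells and basophils in the knockout. In the control 41.6% were MEP and 35.04% mast cells and basophils. The Kcng2-led class held 1.66% of such cells in the knockout (7 of 422) and 4.745% in the control (13 of 274).

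The whole library difference in Gata2 was divided into a part from levels within classes, 44.5%, and a part from class shares of all UMIs, 55.5%. MEP shares gave 30.1%, where MEP held 10.2% of all knockout UMIs and 6.59% of control UMIs. Mast cells and basophils gave 24.4% by their share and 21.9% by their level, and GMP gave 12.3% by level. With the knockout classes reweighted to the control shares, the Gata2 ratio was 0.33. For Cbfa2t3 71.2% of the difference came from levels and 28.8% from shares, and the reweighted ratio was 0.28. Class borders rest on genes that differed themselves, such as the MEP marker Slc22a3 at 33.55 against 20.4 CPM, so these parts depend on the clustering. Class sizes and levels therefore cannot be fully told apart. When knockout cells were instead assigned to the nearest control cluster, the Gata2 ratio was 0.34 in MEP and 1.75 in GMP. That assignment gave no HSC/MPP class, so its classes may not hold the same cells.

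**Figure D4:**
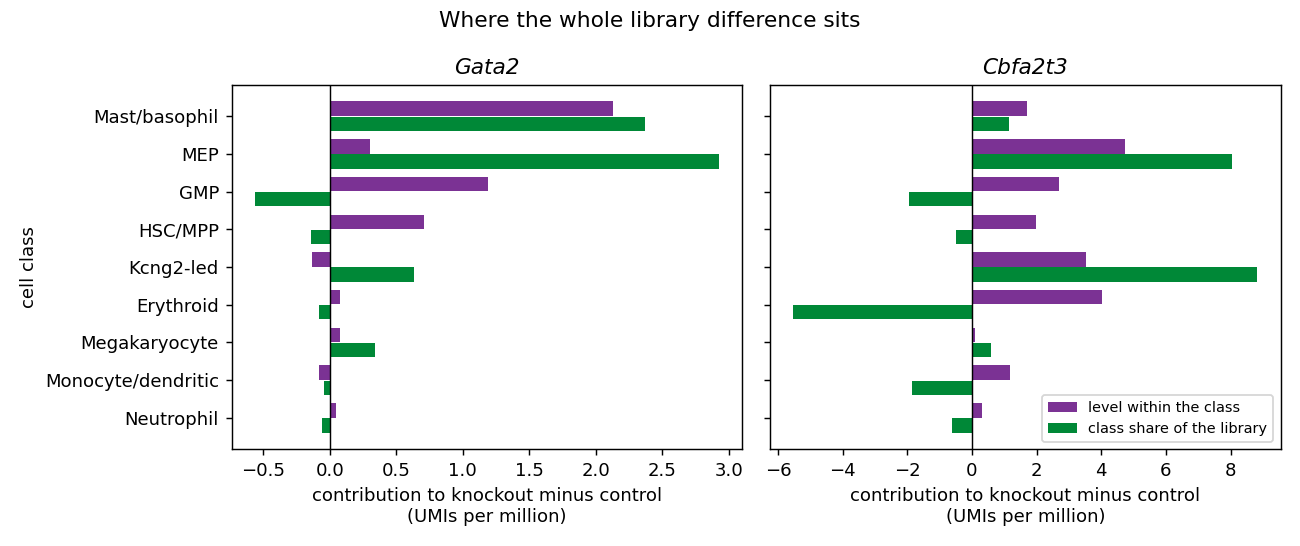
Contribution of each class to the knockout minus control difference in CPM (x axis), divided into the part from the level within the class (purple) and the part from the class share of the library (green), for Gata2 and Cbfa2t3. The Gata2 bars of mast cells and basophils are long for both parts, while the MEP bar is long for the share only.

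Cbfa2t3 was higher in the knockout in all 7 compared classes, each with its interval above 0, and in both sexes of each class both knockout values lay above both control values. Genes with such values made up 23.6% of those tested in the monocyte class, 26.5% in MEP, 31.1% in the Kcng2-led class and 39.7% in erythroid cells. The order of classes was led by MEP, at 252 CPM in the knockout and 195 in the control (ratio 0.37, 0.31 to 0.42). Mast cells and basophils were at 209.5 and 128 (0.71, 0.57 to 0.85), GMP at 143 and 88.2 (0.70, 0.59 to 0.81), and HSC/MPP at 173.5 and 128 (0.44, 0.34 to 0.54). Monocyte and dendritic progenitors, which hardly carry Gata2, were at 166 and 118 (0.495, 0.36 to 0.63). The Kcng2-led class was at 131 and 111 (0.24, 0.18 to 0.29) and erythroid cells at 74.5 and 67.5 (0.14, 0.10 to 0.18). In male erythroid cells the ratio was 0.05, with an interval from -0.003 to 0.11. Single clusters within the erythroid class did not share a direction, as given below.

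Cbfa2t3 passed a log2 ratio of 0.3 in 5 classes. In MEP 2.48% of genes did so, in GMP 4.44%, in HSC/MPP 4.74%, in the monocyte class 8.59%, and in mast cells and basophils 10.0%. It did not pass in the other 2, where 1.55% (Kcng2-led) and 1.61% (erythroid) of genes did. In MEP it was at 246 against 202 CPM in female and 265 against 194 in male cells, and the ratio was 0.34 with knockout cells assigned to the nearest control cluster. In the megakaryocyte cells it was at 183 and 172 with an interval of the ratio from -0.12 to 0.29. After thinning, the share of cells with a Cbfa2t3 UMI was 86.8% against 75.4% in GMP, 87.5% against 79.8% in HSC/MPP, 88.9% against 81.1% in mast cells and basophils, and 97.0% against 94.5% in MEP. Most of these rises were not seen without thinning. The MEP shares were then 98.4% and 98.95%, a difference of -0.58 percentage points, at median depths of 31829 and 35673 UMIs. The unthinned difference was -0.73 points in mast cells and basophils (-6.26 to 4.80) and 1.41 in HSC/MPP (-2.635 to 5.45), where thinning to 27941 UMIs gave 0.16. In GMP it was 4.69 points (0.62 to 8.76).

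Within the erythroid class Cbfa2t3 fell with maturation in both libraries. Cells were divided into 3 groups, equal in number over both libraries, by their share of alpha-globin transcripts, which accumulate with maturation. In the group with the least alpha-globin Cbfa2t3 was at 119.7 CPM in the knockout and 99.8 in the control, in the middle group at 72.9 and 57.0, and in the group with the most at 32.4 and 28.5. The log2 ratios were 0.26, 0.36 and 0.19, but they depended on the staging. With the groups taken within each library they were 0.18, 0.17 and -0.01, and with groups by the summed heme synthesis genes 0.20, 0.03 and -0.02. The late erythroid clusters with 100 or more cells of both libraries did not share a direction. In cluster 8 (305 and 455 cells) Cbfa2t3 was lower in the knockout, at 17.1 against 28.4 CPM (-0.73, -0.98 to -0.48). In cluster 10 (158 and 179) it was at 47.3 against 46.4 (0.03, -0.18 to 0.23), in cluster 11 (175 and 272) at 43.97 against 34.99 (0.33, 0.08 to 0.58), and in cluster 13 (294 and 443) at 43.7 against 38.25 (0.19, 0.01 to 0.38). Among early erythroid clusters of that size, the ratio in cluster 6 was -0.29 (-0.45 to -0.13). In cluster 12 it was -0.08 (-0.27 to 0.11) and in cluster 14 -0.04 (-0.17 to 0.08). Cluster 3, with 98 knockout cells, was at 0.15 (0.02 to 0.28). Cluster 0, with 800 knockout and 23 control cells, was high in Cbfa2t3 in both, at 127 and 132 CPM. Over the 3 alpha-globin groups of both libraries Gata2 fell too, from 1.98 to 0.945 to 0.493 in the knockout and from 1.42 to 0.783 to 0.593 in the control. The intervals of the middle and last groups overlapped in each library. Alb, as background, was at 0.904 CPM in knockout and 0.720 in control erythroid cells. From the middle to the last group by heme synthesis genes, Gata2 went from 0.839 to 0.318 in the knockout and from 0.566 to 0.569 in the control.

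**Figure D5:**
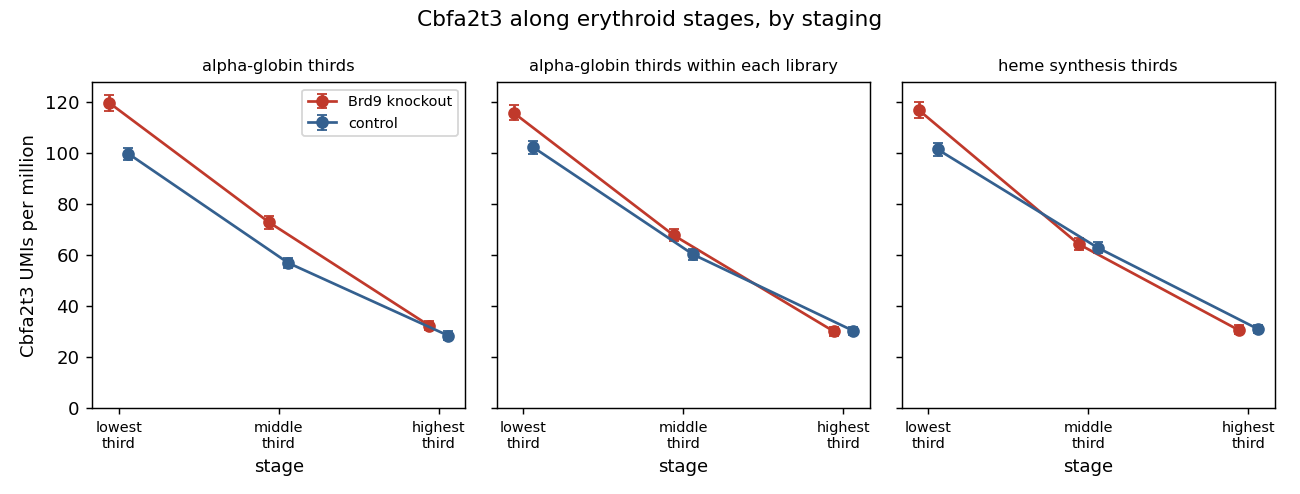
Cbfa2t3 in CPM (y axis, from 0) with 95% exact Poisson intervals, in erythroid cells divided into 3 groups of rising maturity in 3 ways (panels, x axis), for the knockout (red) and control (blue) library. The fall from the least to the most mature group is seen in each panel, while the libraries meet in the most mature group when grouped within each library or by heme synthesis genes.

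Lyl1 had an interval above 0 in 5 of the 7 classes, but its differences were small. Its ratios lay between 0.04 in MEP and 0.45 (0.15 to 0.75) in mast cells and basophils, the only class past 0.3, where 10.0% of genes passed. There it was at 41.35 CPM in the knockout and 30.3 in the control, from 257 and 147 UMIs, with 44.3 against 31.7 in female and 36.1 against 28.8 in male cells. Both sexes lay above the control in 6 of the 7 classes, MEP being the exception. In those classes the same was so for between 23.6% (monocyte class) and 39.7% (erythroid cells) of genes. HSC/MPP had the highest Lyl1 value, 77.0 and 67.6, but the Kcng2-led class, at 71.4 and 64.1, overlapped it in both libraries. Mast cells and basophils had the lowest value of the 7, and in the knockout their interval (36.45 to 46.73) met that of the monocyte class (46.69 to 60.39).

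Ldb1 differed little. Its interval lay below 0 in MEP (-0.11), the Kcng2-led class (-0.09), and mast cells and basophils (-0.30, -0.54 to -0.07). In the last it was at 49.6 CPM against 61.1, with 54.8 against 71.7 in female and 43.7 against 57.3 in male cells, and 6.82% of genes there were lower past -0.3. By sex the knockout values lay below the control values in 5 of the 7 classes. This was so for 19.1% of genes in MEP, 21.7% in the Kcng2-led class, 17.6% in mast cells and basophils, 22.1% in GMP and 21.9% in the monocyte class. The direction was not stable elsewhere: in erythroid cells the ratio was 0.04 in female and -0.11 in male cells, in HSC/MPP it was 0.06 in female and -0.105 in male cells, in GMP it was 0.14 with doublets kept in clustering, and in the monocyte class 0.02 with the members left in the clustering. Ldb1 was highest in erythroid, Kcng2-led and MEP cells, at 80.9, 79.9 and 78.0 in the knockout, whose neighbouring intervals overlapped.

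Most cells with Gata2 also carried Cbfa2t3. Of thinned cells with a Gata2 UMI, 1019 of 1115 in the knockout and 766 of 902 in the control also had a Cbfa2t3 UMI. Cells with both made up 15.95% of the knockout (15.1 to 16.9) and 11.7% of the control (10.9 to 12.5). If the genes were found independently, 12.7% and 9.20% would carry both, so the observed share was 1.25 and 1.27 times that. The odds ratio was 4.76 (3.83 to 5.92) in the knockout and 3.19 (2.64 to 3.86) in the control. Among cells with both, 39.2% were MEP in the knockout and 34.9% in the control, and 15.2% and 13.1% were mast cells and basophils.

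Within classes the share with both could exceed that expected only where Cbfa2t3 was missing from many cells, so the odds ratio is given. It was 2.035 (1.145 to 3.615) in knockout and 1.32 (0.78 to 2.21) in control erythroid cells, and 1.17 (0.71 to 1.93) and 2.15 (1.18 to 3.93) in the Kcng2-led class. In knockout GMP the odds ratio was 2.42 (1.11 to 5.29), and in control GMP 1.06 (0.64 to 1.75), intervals that overlap. The intervals of the other classes all spanned even odds. HSC/MPP had 1.20 (0.61 to 2.37) in the knockout and 1.20 (0.69 to 2.08) in the control. MEP had 1.55 (0.65 to 3.70) and 0.91 (0.39 to 2.11), and mast cells and basophils 1.63 (0.18 to 14.7) and 3.03 (0.48 to 19.2). The monocyte class had 0.39 (0.13 to 1.22) in the control, and no value could be computed in the knockout. Gata2-positive knockout GMP cells had 161.5 CPM of Cbfa2t3 against 128 in negative cells, a log2 ratio of 0.33 (0.13 to 0.54), while in the control they had 95.6 against 84.4, a ratio of 0.18 (-0.07 to 0.42). In HSC/MPP the same ratio was 0.18 (0.002 to 0.36) in the knockout and -0.22 (-0.44 to -0.0001) in the control, and in MEP 0.17 (0.07 to 0.27) and -0.03 (-0.18 to 0.11). Whether these ratios differ between the libraries was not tested. The Pearson correlation of thinned Gata2 and Cbfa2t3 counts was 0.26 over all 6390 knockout cells and 0.19 over all 6546 control cells. It was 0.26 in knockout and 0.04 in control GMP and lay between -0.09 and 0.21 in the other 6 classes, over cells that share a library and a depth.

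Ldb1 was lower in Gata2-positive than in Gata2-negative MEP in both libraries, at 68.6 against 88.9 in the knockout and 76.9 against 92.1 in the control. Gata1 was at 126 against 127 in the knockout and 125.5 against 139 in the control, and both intervals of the ratio spanned 0 (-0.16 to 0.13 and -0.33 to 0.03). Cells were then grouped by their own Gata1 UMIs after thinning. In MEP with 0, 1 or 2 to 3 Gata1 UMIs the Gata2 ratio of knockout to control was -0.02, 0.03 and 0.09, and with 4 to 6 it was -0.46 (-0.74 to -0.18), at 79.7 against 109.5 CPM. With 7 or more it was -0.13 (-0.87 to 0.62), on 15 and 9 cells. In the Kcng2-led class the ratio was -0.17, -0.54 and -0.02 with 0, 1 or 2 to 3 Gata1 UMIs. With 7 or more it was -0.38, and each of these intervals spanned 0. Kcng2-led cells with 4 to 6 Gata1 UMIs had 5.40 against 13.8, a ratio of -1.36 (-2.13 to -0.61) on 25 and 42 UMIs. In erythroid cells with 4 to 6 the Gata2 ratio was -0.40, with an interval from -1.46 to 0.61. Cbfa2t3 in MEP with 4 to 6 Gata1 UMIs was higher in the knockout, at 283 against 203, a ratio of 0.48.

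The genes whose levels over the 7 classes were most like those of Gata2 were Ripor1, Tnik, Csrp1, Abcd3, Slc22a3 and Arhgap6. Their Pearson correlation with Gata2 on log2 levels was at least 0.95 in each library, over 7 classes that share their cells and depth. Slc22a3, an organic cation transporter and one of the MEP markers, had a knockout to control log2 ratio of 0.72, and Arhgap6 one of 0.50, while Abcd3, a peroxisomal transporter, had 0.002. Among those most like Cbfa2t3 were Csk, Foxn3, Nln, Por and Cyfip1, with correlations of at least 0.86 and knockout to control ratios between 0.04 and 0.20. Gata2 and Cbfa2t3 correlated with each other at 0.72 and 0.69. Across single mast cells and basophils (180 and 127 thinned cells) the genes that varied most with Gata2 were Srgn, Myh9, Runx1, Hdc, Actb and Lgals1, with correlations between 0.28 and 0.43. Srgn encodes the granule proteoglycan serglycin and Hdc the enzyme that makes histamine.

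Other genes of the GATA machinery lay on both sides of 0. Of the other GATA factors and their FOG cofactors, 2 of 4 genes passed 20 CPM: Gata1 (ratio 0.09) and Zfpm1, which encodes FOG1 (0.20). Zfpm1 had a ratio of 0.58 (0.37 to 0.80) in GMP and 0.50 (0.36 to 0.65) in HSC/MPP. Of 12 partner proteins (TAL1, LMO, E-protein, SSBP and related genes) 10 passed the filter, 4 above and 6 below 0 (65.3% of all genes lay above 0), with a median of -0.02 beside 0.03 over all genes. Among these were Tal1 (-0.11), Lmo2 (-0.09), Ssbp4 (0.08) and Tcf12 (0.06). Lmo1, below the filter, was at 2.19 against 5.15 CPM (-1.23), and its ratio was -1.27 in GMP and -0.86 in HSC/MPP, where it passed. Lmo2 had a ratio of -0.67 in HSC/MPP and -0.55 in mast cells and basophils, and Tal1 one of -0.59 in the latter. Of 15 ETO relatives and corepressors 13 passed, 10 above and 3 below 0, and 0 of them past 0.3. Their median ratio was 0.04, and among them Tbl1xr1 was at 0.12, Gfi1b at 0.08 and Irf2bp2 at -0.07. Gfi1, which encodes a repressor related to GFI1B, was below the filter at 1.745 against 4.98 CPM (-1.51), and in GMP it passed, at 15.45 against 39.9 (-1.37). Of the heptad partners, Runx1 had a ratio of 0.22 and Fli1 of 0.19.

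Genes known to be bound or activated by GATA2 did not move together. Of 8 such genes 6 passed the filter, and 1 was above and 5 below 0, with a median of -0.22. Past 0.3 in size were 1 above and 3 below, against 1.46% and 1.61% of all genes. Cpa3, the mast cell carboxypeptidase, was the one above, at 34.5 against 23.3 (0.57), and its ratio was 0.85 in HSC/MPP, 0.58 in GMP and 0.31 in mast cells and basophils. Hdc was at 15.1 against 20.5 (-0.44), and within mast cells and basophils at 313 against 431 (-0.46). In that class, which has the most Gata2, 7 of the 8 genes passed the filter, 1 higher and 4 lower past 0.3 in size, against 10.0% and 6.82% of all genes there. The others of the 4 were Ms4a2, a chain of the IgE receptor, at 91.7 against 170.6 (-0.90), Kit, the stem cell factor receptor, at 111 against 152 (-0.45), and Il1rl1, the IL-33 receptor, at 64.5 against 80.25 (-0.31). Spi1, which encodes the myeloid factor PU.1, had a ratio of -0.41 over the library but -0.002 in GMP and 0.06 in mast cells and basophils. Samd14, which promotes KIT signalling, had -0.31, and -0.39 within erythroid cells. Of 5 erythroid genes that ETO2 is known to hold down, 4 passed the filter, 1 above and 3 below 0, with a median of -0.14. Those below were Slc4a1, the anion exchanger band 3 (-0.45, and -0.27 within erythroid cells), Epb42 (-0.18) and Klf1 (-0.09).

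The nearest neighbours of Gata2 and Cbfa2t3 on the chromosome that passed 20 CPM had smaller ratios. Rpn1 and Eefsec, on either side of Gata2, had ratios of 0.02 and 0.15, and Trappc2l and Ankrd11, around Cbfa2t3, 0.05 and 0.04. Gm10612, a predicted gene on the opposite strand that overlaps Cbfa2t3, was far below the filter, at 0.157 against 0.109 CPM (0.52, -0.19 to 1.26). Neighbours of Lyl1 and Ldb1 were not examined.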

How the data were processed

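Single-cell 3' RNA libraries (10x Genomics chemistry, per the labels) were deposited by the authors as whole-number UMI counts per gene and barcode, with no normalization. Cell Ranger 7.2.0 and mm10 are named in the submitters' processing notes; the sources used here do not say how intronic reads were handled. The members and lists were chosen with earlier results of these data known.

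The deposited files held 7289 knockout barcodes with 271350214 UMIs and 7399 control barcodes with 292972312 UMIs. Cells were kept with at least 1000 genes, 2000 UMIs and at most 10% mitochondrial UMIs, which left out 288 and 299. Scrublet in scanpy 1.11.5 removed 244 (3.48%) and 240 (3.38%) cells as doublets. Kept cells whose barcode sequence also occurs in the other library's file numbered 14 and 15. A further 140 and 92 kept cells had transcripts of both sexes.

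Cells were clustered together (3000 variable genes, 30 components, 15 neighbours, Leiden resolution 1, 23 clusters) without the members, pathway, cell-cycle, sex-linked, mitochondrial and ribosomal genes and Brd9. Clusters were named from 17 marker lists. UMIs were summed per class and scaled to 1e6, with exact Poisson, Clopper-Pearson and conditional exact intervals. Odds ratios and differences in shares were given normal approximations instead. For shares, cells were thinned to 18526 UMIs, which left out 367 and 314 shallower cells. Ratios and intervals were first tested on simulated Poisson counts, the model that the intervals assume. That checked the calculation only, since the simulated counts had no spread between cells.

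Named genes were the members, up to 4 per pathway list by absolute ratio plus any past 0.3, the 6 most like Gata2 and Cbfa2t3, the 6 that varied most with Gata2 in its highest class, and the nearest expressed neighbours. Lmo1, Gfi1, Irf2bp2, Gm10612 and class values of pathway genes were named outside this rule, after their values were seen. Coordinates come from GENCODE M21 and promoters from RefSeq. Some genes that this rule names are not reported here.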

Additional observations from a re-analysis of the deposited data

Results flagged for a closer look

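Gata2 differed in opposite directions between classes. Its knockout to control log2 ratio was 1.105 in GMP, where female and male cells both had more in the knockout, and -1.835 in monocyte and dendritic progenitors, where both had less. Whether the classes differ in this was not tested, since there was 1 library per genotype. The monocyte value rests on 6 knockout and 40 control UMIs. It was -0.05 with doublets kept in clustering, -0.13 at resolution 1.5, and -0.18 (-2.20 to 1.42) in male cells alone.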

How the results depend on the processing

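No paired analysis was possible because there was 1 library per genotype. Of 394 recomputed values, 341 stayed within the counting interval of the reported value, 50 fell outside it and 3 reversed. In the sentences below values are knockout to control log2 ratios, and the cause of each shift was not tested. In female cells alone Gata2 was 0.76 over the whole library, 0.88 in HSC/MPP, -0.15 in MEP, 0.15 in the Kcng2-led class and 0.66 in mast cells and basophils, and Cbfa2t3 0.31 in HSC/MPP and 0.28 in MEP. In male cells alone Gata2 was 0.83 over the whole library, -0.37 in the Kcng2-led class and -0.18 in the monocyte class. Cbfa2t3 was 0.45 in MEP, 0.0549 in erythroid cells and 0.68 in the monocyte class, and over the whole library Lyl1 was 0.21 and Ldb1 -0.10. With the class makeup of the knockout set to that of the control, Gata2 was 0.33 and Cbfa2t3 0.28, and scaling to the median gene gave 0.37 for Cbfa2t3. At resolution 1.5 Gata2 was 0.18 in HSC/MPP and -0.13 in the monocyte class, and Cbfa2t3 0.34 in HSC/MPP. With doublets kept, Gata2 was 0.77 in GMP and -0.0499 in the monocyte class, and Cbfa2t3 0.58 in GMP. With knockout cells assigned to control clusters, Gata2 was 0.34 in MEP, 0.53 in mast cells and basophils and 1.75 in GMP. In HSC/MPP above the median lymphoid share Gata2 was 0.33. Cbfa2t3 in erythroid cells was 0.0867 with the members and pathway genes left in the clustering and 0.0441 with cell-cycle genes kept. By erythroid maturity with groups within each library, Cbfa2t3 was 0.18, 0.17 and -0.0123, and by heme synthesis genes 0.20, 0.0326 and -0.0194. The difference in MEP with a Cbfa2t3 UMI was -0.58 percentage points without thinning. With at least 5 CPM, 3.03% of genes were higher and 3.06% lower past 0.3, and past 0.5 these were 0.418% and 0.8995%. GMP was not obtained as a class at resolutions 0.6 and 1.5 or with cell-cycle genes kept, nor HSC/MPP when assigning to control clusters. Depth limits Gata2 in erythroid cells (155 and 169 UMIs) and the monocyte class (6 and 40 UMIs), and 1 library per genotype leaves the spread between embryos unmeasured.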
